A study of Mus musculus with 2 samples.

Results

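Glycolysis carries glucose to pyruvate, and the 33 genes described here cover that route in the stromal vascular fraction (SVF) of mouse gonadal white adipose tissue (gWAT). They comprise 12 genes of the steps before phosphoglycerate mutase, Pgam1 itself, 5 genes of the steps after it, 3 enzymes that make or break fructose 2,6-bisphosphate, 4 membrane transporters for glucose or lactate, 7 genes of pyruvate fate, and the transcription factor gene Hif1a. The members were taken by name, with earlier results of these data known, and all 33 were among the 28692 genes counted in both libraries. The study compared mice that lose Pgam1 in adipocytes (Adipo-Pgam1 KO mice, which carry Adipoq-Cre and Pgam1 flox/flox) with littermate control mice. The control mice were Pgam1 flox/flox and lacked Cre by the study's methods, and are named littermate wildtype in the labels. All mice were male C57BL/6 mice, 13 weeks of age. Single-cell RNA sequencing (10x Genomics, counted at the 3′ end of transcripts) was done on 1 library per genotype, and how many mice each library held was not given in the sources used here. The Adipoq promoter drives Cre in adipocytes, which float away when the SVF is prepared. The study proposed that Cre may also act in a fibroblast cluster of likely preadipocytes, and its clusters were not used here.

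In glycolysis, hexokinases trap glucose as glucose phosphate, phosphofructokinase sets the committed step, and aldolase splits the sugar. Gapdh and Pgk1 then make phosphoglycerate, Pgam1 shifts its phosphate group, enolase turns it into phosphoenolpyruvate, and pyruvate kinase releases pyruvate. Pyruvate can become lactate through lactate dehydrogenase and leave the cell through a monocarboxylate transporter. It can also enter mitochondria through the Mpc1 and Mpc2 carrier and be oxidised by pyruvate dehydrogenase, which the Pdk kinases hold back. Myeloid cells and activated lymphocytes are known for high glycolysis, and Hif1a raises many genes of the route when oxygen is low.

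Sequencing gave 42859406 UMIs over 8522 barcodes for the littermate control mice and 13821581 UMIs over 2730 barcodes for the Adipo-Pgam1 KO mice. UMIs are molecular identifiers at the 3′ end, so that longer transcripts are not counted more often. After barcodes with fewer than 500 detected genes or more than 10% mitochondrial UMIs were left out, and after likely doublets were removed, 3616 control and 937 KO cells remained, with medians of 6888.5 and 7481 UMIs per cell. Within each of the 9 classes compared between genotypes, the median was higher in the KO library, with 12306 and 17875.5 UMIs in fibroblast-like, 8231 and 10935 in macrophage-like and 6066 and 10313.5 in monocyte-like cells, and the part of this difference in the ratios was examined only by thinning cells to 2000 UMIs. The libraries had 9 barcodes in common, none of them among the kept cells. Cells were clustered together without the member genes, and clusters were named from marker lists as, for example, fibroblast-like. There were 777 control and 182 KO fibroblast-like cells, and 658 and 95 macrophage-like cells. Fibroblast-like cells were marked by Dcn, at 24738 CPM in the control library, and macrophage-like cells by the complement genes C1qa, C1qb and C1qc, with all 8 listed markers of each class detected. The top genes by fold of the fibroblast-like and macrophage-like clusters were other genes than the listed markers. A further 467 control and 184 KO cells stayed unnamed. Levels are given as CPM, the UMIs of a gene scaled to all UMIs of its class, with an exact Poisson 95% interval, and ratios as log2 of KO over control with an exact conditional 95% interval. With 1 library per genotype there is no replicate check and no p-value, and these intervals cover counting error only.

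In the control library Pgam1 was present in each of the 13 named classes that had at least 30 control cells. As a whole class, macrophage-like cells had the highest level, 140.4 CPM (131 to 150.0). They joined a cluster of 337 cells led by Lyz1, at 182 CPM, and a cluster of 321 cells led by Cd209f, at 64.3 CPM, near the lymphoid classes. Under 4 other filter or clustering settings the class held at most 46 cells of the first. Mesothelial-like cells, the lining of the tissue, had 115 CPM (98.4 to 135), and fibroblast-like cells had 108 CPM (102 to 115). These intervals of mesothelial-like and fibroblast-like cells overlapped, also with those of pericyte and smooth muscle-like, type 1 dendritic-like and monocyte-like cells at 112 to 113 CPM. The lower end was held by lymphoid cells, with 76.4 CPM in B-like, 74.2 CPM in NK-like and 62.9 CPM in T-like cells. Group 2 innate lymphoid-like cells had the lowest level, 50.0 CPM (35.7 to 68.1). No class stood 4-fold above its median over classes, which was 89.8 CPM.

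**Figure D1:**
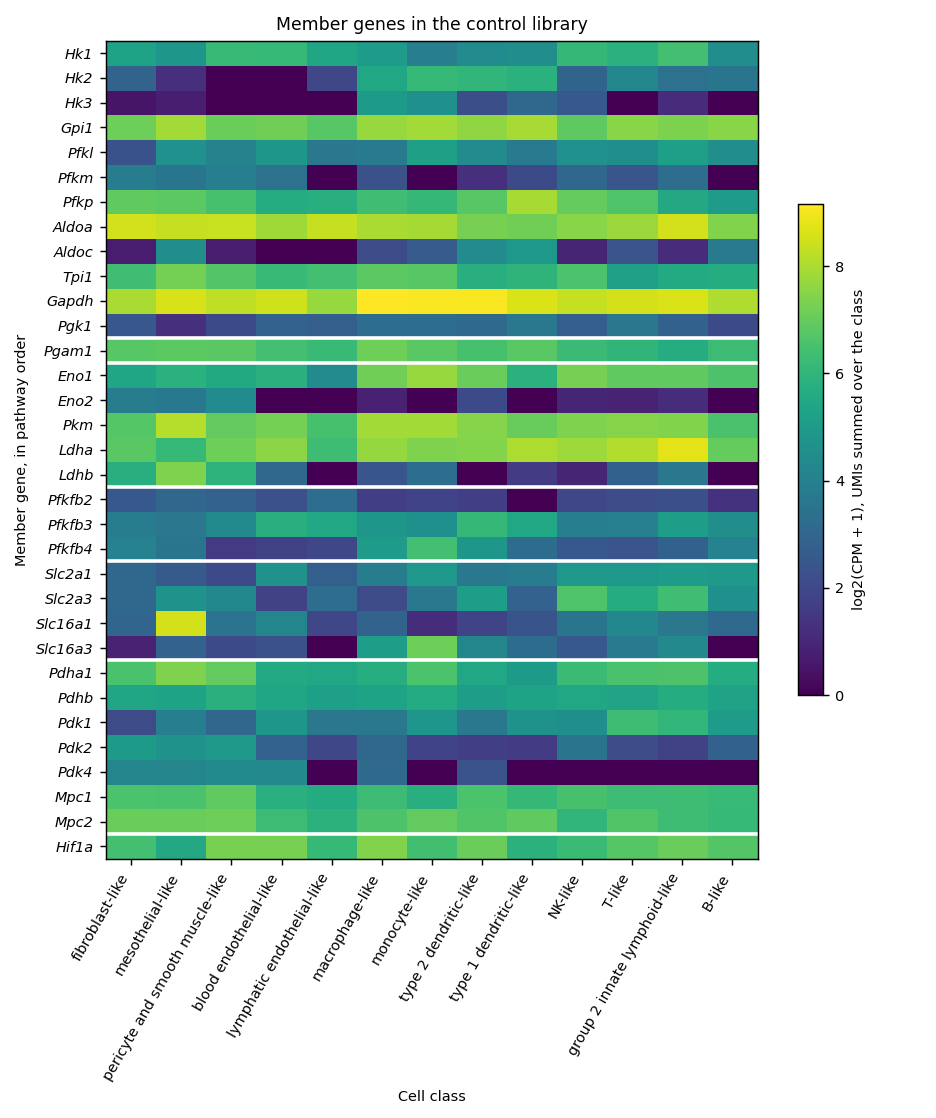
Level of each of the 33 member genes (rows, in pathway order, white lines between the gene groups) in 13 cell classes (columns) of the littermate control library, as log2(CPM + 1) from UMIs summed over the class. Gapdh and Aldoa are bright in every class, while Slc16a1 is bright in mesothelial-like cells and Slc16a3 in monocyte-like cells.

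Cell classes differed in which isoform of a step they used. Of the 33 members, 11 were at least 4-fold above their median over the 13 classes in one class: Hk2, Hk3, Aldoc, Eno2, Ldhb, Pfkfb4, Slc2a3, Slc16a1, Slc16a3, Pdk2 and Pdk4. Of all 14988 genes with at least 10 UMIs over these classes, 30.5% were so, a share near that of the members. The count of members ran from 6 to 11 over 19 alternative settings. For Pdk4, the ratio of its highest class over the rest changed sign in 2 of 18 settings (lowest -0.94). At the entry step, Hk1 made up 85.0% (81.3% to 88.2%) of hexokinase UMIs in fibroblast-like cells. It was the only hexokinase with UMIs in blood endothelial-like cells (55 UMIs) and in pericyte and smooth muscle-like cells (114 UMIs). Myeloid cells used Hk2, the insulin- and hypoxia-inducible form, and Hk3, a form of blood cells. Hk2 made up 65.1% (53.8% to 75.2%) of hexokinase UMIs in monocyte-like cells and 72.6% (65.8% to 78.7%) in type 2 dendritic-like cells. In macrophage-like cells Hk2 took 41.1%, Hk1 29.9% and Hk3 29.0%. The Lyz1 cluster had 236 Hk2, 131 Hk1 and 98 Hk3 UMIs and the Cd209f cluster 40, 70 and 97, so that the main form differed between them. Hk3 had its highest level there (30.7 CPM, 26.6 to 35.4), ahead of monocyte-like cells (23.2 CPM). By level, Hk2 was at 69.5 CPM (52.2 to 90.7) in monocyte-like and 6.47 CPM (4.96 to 8.30) in fibroblast-like cells, and no UMI was seen in pericyte and smooth muscle-like cells, where 3 UMIs would be 1.92 CPM. Pfkp was the main phosphofructokinase in every class, from 50.7% in group 2 innate lymphoid-like to 93.9% in type 1 dendritic-like cells. Aldoc, a second aldolase, reached 28.6 CPM (18.8 to 41.6) in type 1 dendritic-like and 22.1 CPM in mesothelial-like cells, against 0.627 CPM in fibroblast-like cells.

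Transporters split the classes further. Slc2a3, a high-affinity glucose transporter, was at 98.9 CPM (80.8 to 120) in NK-like and 81.3 CPM (62.7 to 104) in group 2 innate lymphoid-like cells, and at 3.31 CPM (2.05 to 5.06) in macrophage-like cells. Macrophage-like cells used Slc2a1, the widespread glucose transporter, for 80.6% (71.8% to 87.5%) of the UMIs of this pair. These came mostly from the Lyz1 cluster (86 Slc2a1 and 12 Slc2a3 UMIs), and the Cd209f cluster had 1 and 9 UMIs. Slc16a1, a monocarboxylate transporter that works in both directions, was at 379 CPM (348 to 413) in mesothelial-like cells. The next class, T-like cells, had 18.3 CPM (11.4 to 28.0), and the level in mesothelial-like cells was 50.7-fold that of all other named cells together. Slc16a3, the transporter known for lactate export, had its own peak in monocyte-like cells, at 139 CPM (114 to 168), with 33.3 CPM in macrophage-like and 0.835 CPM in fibroblast-like cells. Pfkfb4, which raises or lowers fructose 2,6-bisphosphate, was likewise highest in monocyte-like cells, at 84.9 CPM (65.7 to 108), ahead of macrophage-like cells at 32.8 CPM.

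After Pgam1, fibroblast-like, pericyte and smooth muscle-like and mesothelial-like cells differed from the immune cells. Ldha, the lactate dehydrogenase subunit that favours lactate formation, made up 94.9% to 100% of lactate dehydrogenase UMIs in the 8 immune classes and 96.2% in blood endothelial-like cells. The share was 67.6% (65.2% to 69.9%) in fibroblast-like cells, 69.9% in pericyte and smooth muscle-like cells and 29.5% (24.6% to 34.7%) in mesothelial-like cells. Ldhb, the subunit that favours pyruvate formation, was at 165 CPM (145 to 188) in mesothelial-like and 4.41 CPM in macrophage-like cells. Mesothelial-like cells thus stood out for both Ldhb and Slc16a1. Eno2, the enolase of neurons, was at 20.5 CPM in pericyte and smooth muscle-like and 13.7 CPM in fibroblast-like cells, and at 0.788 CPM in macrophage-like cells. Pyruvate dehydrogenase kinases also differed by class. Shares were taken over Pdk1, Pdk2, Pdk4 and Pdk3, the last of which is not a member. Pdk3 had 100 UMIs in control macrophage-like cells, beside 43 and 32 Pdk1 UMIs in the Lyz1 and Cd209f clusters. Pdk1 took 82.4% (73.9% to 89.1%) of kinase UMIs in T-like and 81.5% in group 2 innate lymphoid-like cells, 46.8% in blood endothelial-like and 27.6% in macrophage-like cells, and 5.13% (3.53% to 7.16%) in fibroblast-like cells. In fibroblast-like cells Pdk2 took 47.3% (30.8 CPM, the highest level of this gene) and Pdk4, which rises in fasting, took 26.3%. Pdk4 was at 19.2 CPM in pericyte and smooth muscle-like and 18.8 CPM in blood endothelial-like cells, with no UMI in 7 of the 13 classes.

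**Figure D2:**
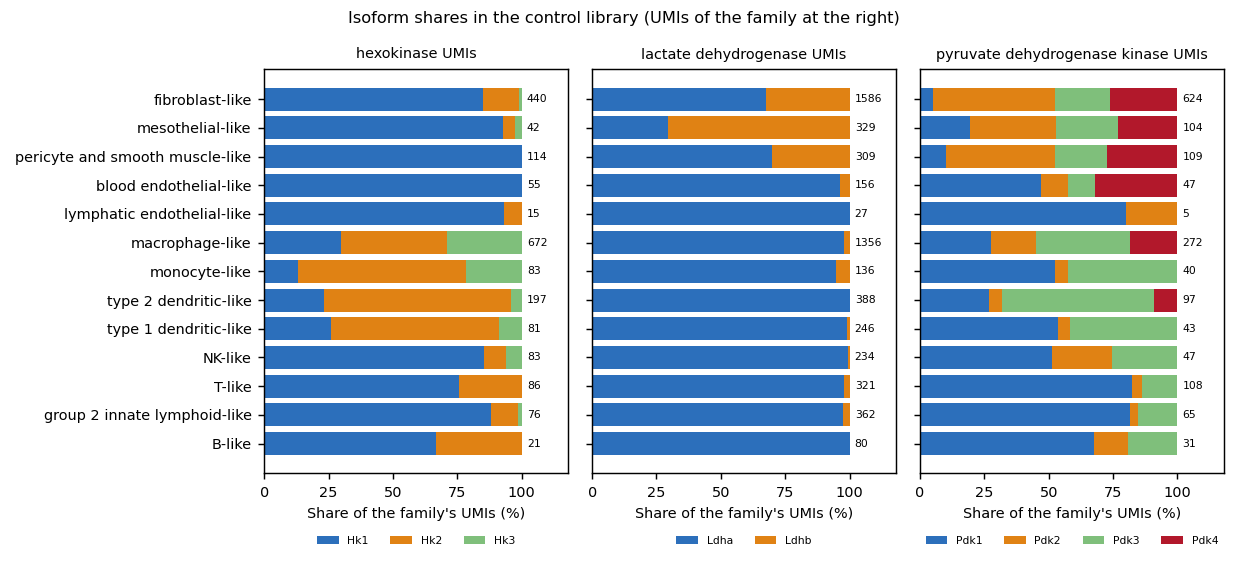
Share of each isoform (coloured bar segments, %) among the UMIs of the hexokinase, lactate dehydrogenase and pyruvate dehydrogenase kinase families in 13 classes (rows) of the control library, with the family's UMIs printed at the right of each bar. Ldhb holds most of the bar in mesothelial-like cells only, and Hk1 gives way to Hk2 in monocyte-like and dendritic-like cells.

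Macrophage-like and fibroblast-like cells are the largest immune and stromal classes, and 31 of the 33 members differed between them in the control library by a log2 ratio whose interval did not hold 0, as did 72.8% of 13451 genes with at least 10 UMIs. The exceptions were Slc16a1 (log2 ratio -0.06) and Pdhb (-0.09). Macrophage-like cells had more Gapdh (569.5 against 252 CPM), Pkm, the main pyruvate kinase (238 against 107 CPM), Eno1 (143 against 41.7 CPM) and Hif1a (169 against 85.1 CPM). By cluster, Gapdh was at 754 CPM in the Lyz1 and 231 CPM in the Cd209f cluster, Pkm at 309 and 109 CPM, Hif1a at 208 and 97.4 CPM and Eno1 at 182 and 72.4 CPM, so that Gapdh and Pkm of the Cd209f cluster were near the fibroblast-like level. Aldoa was at 309 and 147 CPM. Fibroblast-like cells had more Aldoa (365 against 252 CPM), Pdha1, a subunit of pyruvate dehydrogenase (92.0 against 51.4 CPM), and Mpc2 (134 against 95.5 CPM).

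Pgam1, the gene targeted in the Adipo-Pgam1 KO mice, was compared between genotypes in the 9 classes that had at least 30 cells in each library. In control fibroblast-like cells it was at 108 CPM (102 to 115, 1037 UMIs), and in those of the KO library at 105 CPM (93.7 to 117, 316 UMIs), a log2 ratio of -0.04 (-0.23 to 0.14). In macrophage-like cells it was at 140.4 and 202 CPM, a ratio of 0.52 (0.31 to 0.73). In T-like cells it was at 62.9 and 37.7 CPM, a ratio of -0.74 (-1.44 to -0.07), which was -0.63 (-1.34 to 0.03) with median-of-ratios factors in place of the class total. Intervals of the ratio held 0 in the other 6 classes, where it ran from -0.34 in blood endothelial-like to 0.45 in monocyte-like cells. The ratio was positive in 5 classes and negative in 4. Over all kept cells Pgam1 was at 110.1 and 117 CPM, a ratio of 0.09 (-0.01 to 0.18). Over all barcodes, before any filter, it was at 99.3 and 91.5 CPM, a ratio of -0.12 (-0.21 to -0.03). The sign over the whole library thus changed with the barcode filter. Which exons the floxed alleles lose was not given in the sources used here, and whether counts at the 3′ end check the deletion was not examined. No cluster was named adipocyte-like. The 6 listed adipocyte markers had 28 UMIs in control and 11 in KO fibroblast-like cells (2.92 and 3.65 CPM in sum). The most abundant were Retn and Slc2a4 in control (0.835 CPM each) and Slc2a4 in KO cells (1.33 CPM). In each library 5 of 6 were detected, and Lep was at 0 in both. In the unnamed cells these markers had 53 and 21 UMIs (19.8 and 15.8 CPM), with Slc2a4 highest in both libraries and Plin1 and Lep at 0.

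Within classes, the Pgam1 ratios were uneven. The fibroblast-like class is made of 2 clusters. In the larger one, with 507 control and 122 KO cells, Pgam1 had a ratio of 0.09 (-0.13 to 0.31). In the smaller one, marked by Pi16 and with 270 and 60 cells, it was at 108 and 82.7 CPM, a ratio of -0.38 (-0.75 to -0.03). Median-of-ratios factors, taken per class and not per cluster, raised the fibroblast-like ratios by 0.096. That is more than the gap between this interval and 0. Adipocyte markers had 19 control and 11 KO UMIs in the larger cluster and 9 and 0 UMIs in the Pi16 cluster. In T-like cells the larger cluster, led by Cd8b1, gave -1.15 (57.4 and 25.8 CPM), and a second cluster, led by Il23r, gave 0.06 (-1.08 to 1.13). The difference between the clusters was not tested in either class.

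**Figure D3:**
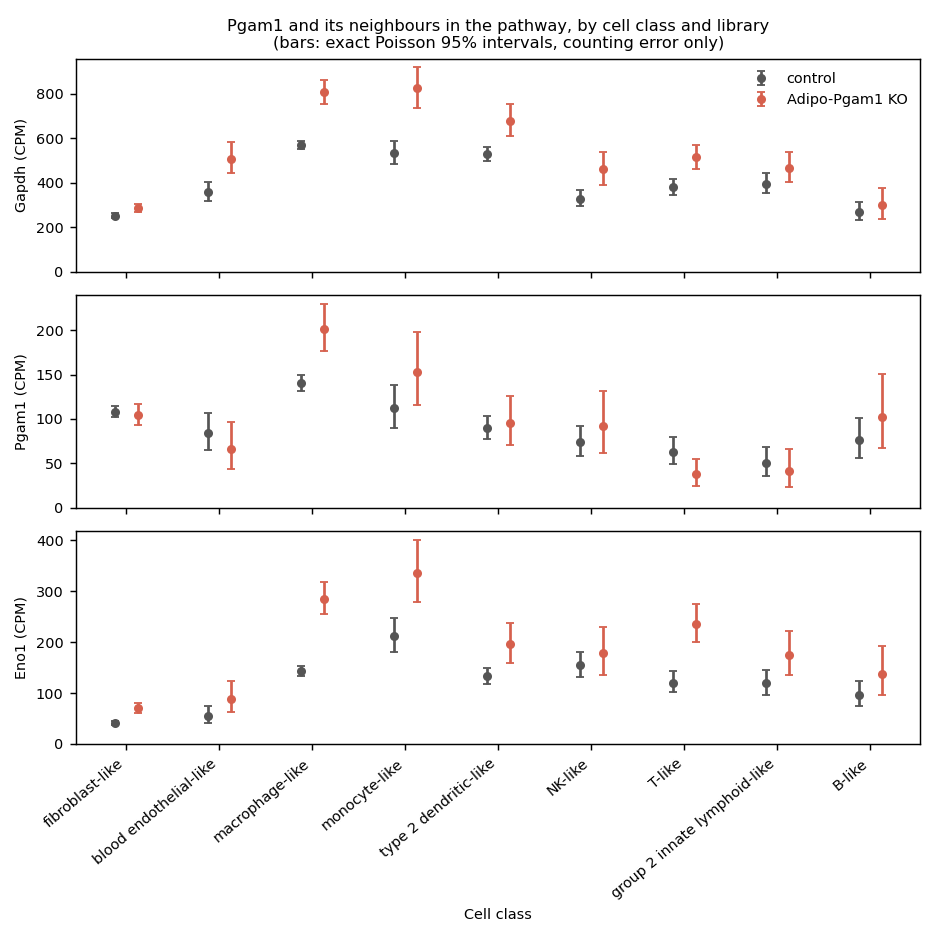
Levels of Gapdh, Pgam1 and Eno1 (CPM, 1 panel each, axes from 0) in 9 classes of the control library (grey) and the Adipo-Pgam1 KO library (red), with exact Poisson 95% intervals as bars. Gapdh and Eno1 lie higher in the KO library in all 9 classes, and Pgam1 in 5 of them.

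In fibroblast-like cells, 31 of the 33 members had at least 10 UMIs over both libraries and entered the counts. Past 1.5-fold, 5 members were higher in the KO library, where 7.14% of 12730 genes were higher, and 0 members were lower, where 11.6% of the genes were lower. Intervals lay above 0 for 8 members, against 8.27% of all genes, and below 0 for 4, against 17.6%. Hk2 had the largest ratio whose interval left out 0. It was at 6.47 CPM (4.96 to 8.30, 62 UMIs) in control cells and 18.6 CPM (14.1 to 24.2, 56 UMIs) in KO cells, a log2 ratio of 1.52 (0.98 to 2.07). Its UMIs were spread over 51 control and 37 KO cells, and the ratio was 1.68 and 1.27 in the 2 clusters. Pgk1, the enzyme that makes the first ATP of the route, was at 4.59 and 8.64 CPM, a ratio of 0.91 (0.15 to 1.64). Eno1, the enolase directly after Pgam1, was at 41.7 CPM (37.7 to 46.0) and 70.4 CPM (61.3 to 80.6), a ratio of 0.76 (0.51 to 1.0). Pdk4 was at 17.1 CPM (14.6 to 20.0) and 28.9 CPM (23.2 to 35.7), a ratio of 0.76 (0.36 to 1.14). Thinned to 2000 UMIs per cell, the ratios were 0.51 for Eno1 and Pgk1 and 0.09 for Pdk4, while Hk2 stayed past 1.5-fold in every alternative that was tried (1.33 to 1.94). The control and KO intervals did not overlap for Hk2, Eno1 and Pdk4. For Pdk4 the larger cluster gave 1.02 (0.57 to 1.47) and the Pi16 cluster, on 16 KO UMIs, -0.05 (-0.95 to 0.76), with overlapping intervals and no test of the difference. The fifth, Slc16a3, had 8 and 5 UMIs and an interval that held 0.

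Steps on either side of Pgam1 were then read separately. In fibroblast-like cells the 10 measured members before Pgam1 had a median log2 ratio of 0.09, the 5 after it 0.22, and all 12730 genes -0.10. All 5 members after Pgam1 were higher in the KO library (Eno1, Eno2, Pkm, Ldha and Ldhb), as were 37.6% of all genes, and 3 of them had an interval above 0. Ldha was at 112 and 130.2 CPM (0.22, 0.05 to 0.39) and Ldhb at 53.7 and 65.1 CPM (0.28, 0.03 to 0.52). Summed over the list, the steps after Pgam1 were at 328 and 399 CPM, a ratio of 0.29 (0.19 to 0.38). Before Pgam1, 7 members were higher and 3 lower, and the sum was at 1025 and 1092 CPM, a ratio of 0.09 (0.03 to 0.15). Gapdh (0.18, 0.07 to 0.30) and Aldoa (0.17, 0.07 to 0.26) were slightly higher. Pfkp, the main phosphofructokinase, was lower, at 119 and 92.4 CPM (-0.36, -0.56 to -0.17). The difference between the 2 lists was not tested.

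The 4 member transporters and the 3 Pfkfb members gave no ratio in fibroblast-like cells whose interval left out 0. Slc2a1 had -0.27 (-1.08 to 0.47), Slc2a3 -0.02, Slc16a1 0.53 and the 3 Pfkfb members -0.07 to 0.43. Among genes of pyruvate fate, both member subunits of pyruvate dehydrogenase were lower. Pdhb was at 40.9 and 31.2 CPM (-0.39, -0.73 to -0.06) and Pdha1 at 92.0 and 79.1 CPM (-0.22, -0.43 to -0.01). With median-of-ratios factors both intervals held 0 (Pdhb -0.29, -0.64 to 0.03, and Pdha1 -0.12, -0.34 to 0.09), and so they did within each of the 2 clusters. The carrier genes Mpc1 (-0.10) and Mpc2 (-0.03) had intervals around 0. Hif1a was lower, at 85.1 CPM (79.4 to 91.2) and 66.8 CPM (57.9 to 76.7), a ratio of -0.35 (-0.58 to -0.13). The larger cluster gave -0.50 (-0.79 to -0.21) and the Pi16 cluster -0.09 (-0.46 to 0.28), with no test of the difference. In the same cells the 8 listed immediate early genes, which rise during tissue dissociation, were all detected and summed to 3199 CPM in the control (highest Jun, 820.2 CPM) and 5018 CPM in the KO library (highest Fos, 1301 CPM). The 4 haemoglobin genes, which mark free red cell RNA, summed to 1450 and 983 CPM, with Hbb-bs highest in both (806 and 535 CPM). The 8 macrophage markers summed to 41.1 CPM in control (all detected, C1qb highest at 8.77 CPM) and 13.6 CPM in KO fibroblast-like cells (7 detected, Adgre1 at 0, C1qa highest at 2.99 CPM), against 8386 CPM in control macrophage-like cells. The part of these lists in the ratios was not tested, and leaving haemoglobin out of the total left the Hk2 ratio at 1.52.

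**Figure D4:**
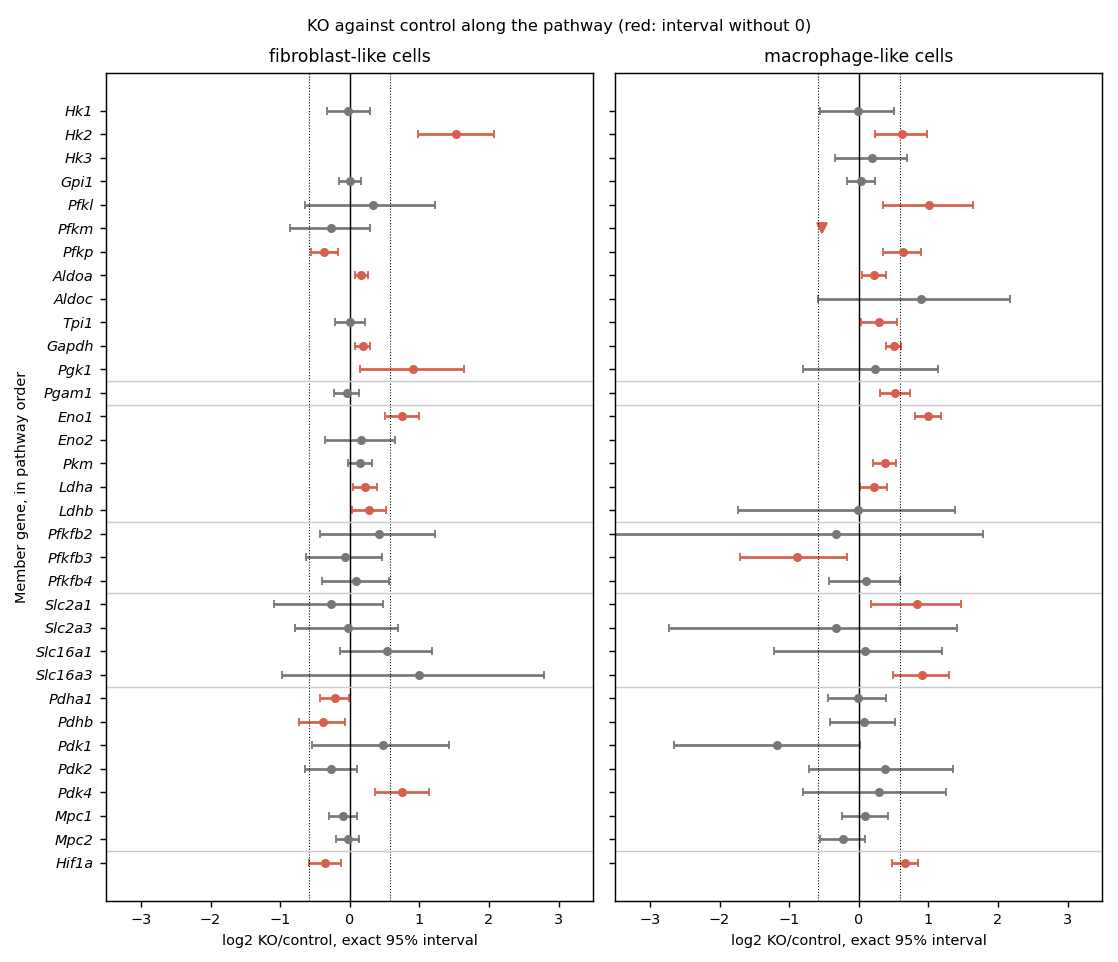
Log2 ratio of KO over control for each measured member (rows, in pathway order) in fibroblast-like (left) and macrophage-like cells (right), with exact 95% intervals (bars, clipped at the axis ends); red marks intervals without 0, dotted lines mark 1.5-fold, and the triangle marks Pfkm, at 24 control and 0 KO UMIs. Eno1 lies past 1.5-fold in both classes, Hk2 is the rightmost point in fibroblast-like cells, and Hif1a lies left of 0 in fibroblast-like and right of 0 in macrophage-like cells.

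In macrophage-like cells, 8 of 32 measured members were past 1.5-fold higher in the KO library, where 7.71% of 11411 genes were, and 2 were lower, where 19.9% of the genes were. Intervals lay above 0 for 13 members, against 7.57% of all genes, and below 0 for 2, against 11.3%. Pfkl, the liver-type phosphofructokinase, was at 12.6 and 25.4 CPM (1.01, 0.34 to 1.64). Eno1 was at 143 CPM (134 to 153) and 285 CPM (255 to 317), a ratio of 0.99 (0.80 to 1.18). Slc16a3 was at 33.3 and 62.2 CPM (0.90, 0.49 to 1.30), Slc2a1 at 13.7 and 24.5 CPM (0.84, 0.17 to 1.47) and Hif1a at 169 and 269 CPM (0.67, 0.48 to 0.85). In some alternative settings the ratios of Slc16a3 (lowest -0.66), Slc2a1 (-0.32), Hif1a (-0.19) and Pfkl (-0.39) changed sign. Over 18 alternatives the members counted as higher ran from 1 to 11, and those counted as lower from 1 to 7. Hk2 was at 43.5 and 66.6 CPM (0.61, 0.23 to 0.99), with 14.5% of its KO UMIs in 1 cell. Pfkfb3, which raises fructose 2,6-bisphosphate, was lower, at 27.6 and 14.9 CPM (-0.89, -1.70 to -0.17), although its interval held 0 within each cluster. The steps before and after Pgam1 had medians of 0.26 and 0.29, against -0.11 for all genes. These ratios depend on which cells carry the name. The class is made of the cluster led by Lyz1 and Ear2, with 337 control and 73 KO cells, and the cluster led by Cd209f and Cd209g, with 321 and 22 cells. Pgam1 was at 182 CPM in control cells of the first and 64.3 CPM in those of the second. The KO cells therefore came mostly from the cluster where Pgam1 was higher. Under 4 other filter or clustering settings, at most 46 of the 337 control cells of the first cluster kept the macrophage-like name, and the Pgam1 ratio of the class was then -0.024 to 0.069. The value of 0.069, from limits of 1000 genes and 5% mitochondrial UMIs, rested on only 17 KO cells.

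Within these clusters the values were smaller for most genes. In the Lyz1 cluster Pgam1 had a ratio of 0.33 (0.10 to 0.55), Hif1a 0.54 (0.34 to 0.73), Slc16a3 0.66 (0.25 to 1.06) and Slc2a1 0.44 (-0.24 to 1.08). Pfkfb3 had -0.40 (-1.48 to 0.53) there and -0.70 (-2.17 to 0.47) in the Cd209f cluster, from control levels of 15.3 and 50.0 CPM. Hk2 had 0.38 (-0.02 to 0.77) in the Lyz1 cluster. Eno1 was at 182 and 319 CPM (0.81, 0.61 to 1.0) and Pfkl at 13.6 and 28.5 CPM (1.06, 0.34 to 1.75). A few cells held much of some genes. The KO cell with the most Pgam1 had 12.6% of the class's KO Pgam1 UMIs. Without the 5% of cells with the most member UMIs, the Lyz1 cluster gave 0.01 for Pgam1, 0.08 for Hif1a, 0.22 for Slc16a3 and -0.53 for Slc2a1, while Eno1 kept 0.72 and Pfkl 0.89. Pfkl had -0.06 (-3.19 to 1.95) in the Cd209f cluster, on 24 control and 2 KO UMIs. In the Cd209f cluster Eno1 had 0.71 (0.01 to 1.34), Gapdh 0.53 (0.14 to 0.91) and Pgam1 0.16 (-0.74 to 0.96), the last on 14 KO UMIs, while Aldoa was lower at 147 and 82.3 CPM (-0.84, -1.66 to -0.12). The 4 haemoglobin genes were all detected and summed to 8627 CPM in control and 3127 CPM in KO macrophage-like cells, with Hbb-bs highest (4421 and 1591 CPM). The 8 cycling genes summed to 30.4 and 45.6 CPM, 8 detected in control and 7 in KO cells, with Top2a (8.98 CPM) and Mki67 (16.6 CPM) highest and Ccnb1 at 0 in the latter. Their part in these ratios was not tested.

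Monocyte-like cells had 123 control and 36 KO cells and the widest shifts. They formed 1 cluster, with Cd300e, Treml4 and Chil3 among its top genes, and its makeup by monocyte subset was not examined. Of 25 measured members, 10 were past 1.5-fold higher, where 14.1% of 7814 genes were, and 5 lower, where 24.9% of the genes were. Intervals lay above 0 for 10 members, against 8.25% of all genes, and below 0 for 3, against 10.6%. Hif1a was at 82.4 CPM (63.4 to 105) in control cells and 319.8 CPM (265 to 383) in KO cells, a ratio of 1.96 (1.51 to 2.42), with no overlap of the intervals. Slc2a3 was at 11.6 and 53.7 CPM (2.21, 1.01 to 3.53), although its 20 KO UMIs came from 6 cells. Pgk1 (1.71, 0.22 to 3.32), the carrier gene Mpc1 (1.06, 0.41 to 1.71) and Pkm (0.89, 0.58 to 1.21) were also higher. The Pgk1 interval was wide, and this gene was counted at low levels in every control class. Pdk1 had 21 control and 2 KO UMIs (-2.33, -5.47 to -0.30), Pfkl had 28 and 3 UMIs (-2.16, -4.52 to -0.47), and Pfkfb4 was at 84.9 and 32.2 CPM (-1.40, -2.42 to -0.50). The medians were 0.35 before and 0.66 after Pgam1, against -0.11 for all genes. The median after Pgam1 rested on 3 measured genes (Eno1, Pkm and Ldha). It leaves out Eno3, an enolase that is not a member and that was lower in these KO cells (values below). Haemoglobin in these cells summed to 11082 CPM in control cells and 787 CPM in KO cells (Hbb-bs highest, 5057 and 398 CPM). Its part was not tested, and with haemoglobin left out of the total the ratio of Hif1a was 1.94.

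Members past 1.5-fold were also counted in the other 6 classes. In T-like cells 4 of 25 were higher (background 8.32%) and 3 lower (background 21.1%): Ldhb, at 7 and 13 UMIs (1.63, 0.19 to 3.19), and Eno1, at 121 and 235 CPM (0.96, 0.63 to 1.30), had intervals above 0, and Pgam1 was among the lower. In blood endothelial-like cells 3 of 21 were higher (10.7%) and 1 lower (23.1%). Slc2a1 was at 25.1 and 56.8 CPM there (1.18, 0.25 to 2.12), Pdk1 at 27.6 and 54.4 CPM (0.98, 0.05 to 1.90) and Eno1 at 55.3 and 89.0 CPM (0.69, 0.01 to 1.35). Slc2a1 brings glucose into the cell, and Pdk1 holds back the oxidation of its pyruvate. In group 2 innate lymphoid-like cells 2 of 24 were higher (11.2%) and 0 lower (22.8%), with Hk2 at 8 and 11 UMIs (1.5, 0.05 to 3.02). Without the 5 cells with the most member UMIs, this Hk2 ratio was -0.25. In type 2 dendritic-like cells 2 of 26 were higher (10.5%) and 1 lower (19.9%), with Pfkfb3 at 67.0 and 139 CPM (1.05, 0.63 to 1.46). In NK-like cells 0 of 22 passed in either direction (11.8% and 18.3%), and in B-like cells 0 of 22 were higher (15.7%) and 2 lower (22.9%), none with an interval off 0. The median after Pgam1 was above that before it in 8 of the 9 classes, all but NK-like cells (0.34 before and 0.20 after), but it rested on 3 to 5 genes. In macrophage-like cells the medians were close (0.26 before and 0.29 after). All 9 classes rest on the same pair of libraries, and no such count was made over other genes. Eno1, Ldhb, Pkm and Ldha share transcript ends with other genes (values below), as do Gapdh, Gpi1, Aldoa and Tpi1 before Pgam1. The part of shared ends in these medians was not tested.

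Gapdh and Eno1, which act shortly before and directly after Pgam1, were the members that stood higher in the KO library in all 9 classes. Of the 33, 19 had at least 10 UMIs in every one of these classes. Over all genes so measured, 1.44% of 5985 were higher in all 9 classes and 4.64% were lower. Eno1 ratios ran from 0.20 in NK-like to 0.99 in macrophage-like cells with a median of 0.66, and Gapdh ratios from 0.15 in B-like to 0.63 in monocyte-like cells with a median of 0.43. With cells thinned to 2000 UMIs, Eno1 was higher in 7 of the 9 classes (lowest ratio -0.61) and Gapdh in all 9. Gapdh was at 252 and 286 CPM in fibroblast-like cells and at 533 and 825 CPM in monocyte-like cells. Ldha and Pkm were higher in 8 of 9 classes, Tpi1 in 7, and Pgam1 in 5, with medians of 0.22, 0.18, 0.16 and 0.08. At the other end, Pdha1 and Pdhb were lower in 7 of 9. Shares of all genes higher or lower in 7 or 8 of the classes were not counted. In single classes the ratio lay below 0 for 53.4% (NK-like) to 62.4% (fibroblast-like) of all genes. These counts are therefore not read as a trait of the members. All 9 ratios rest on the same pair of libraries.

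Eno1 and Gapdh were also the members whose transcript ends are least unique in the genome. Of the 31-base words in the last 400 bases of annotated transcripts, 82.3% of those of Eno1 and 69.4% of those of Gapdh also occurred in another annotated gene. The share was 47.5% for Gpi1, 40.9% for Ldhb, 38.2% for Aldoa, 33.1% for Pkm, 29.1% for Ldha, 27.6% for Mpc1, 25.3% for Tpi1 and 0 for Pgam1, Hk1 and Hif1a. Among the 5985 genes measured in all classes, 13.7% shared at least 10% of these words and 3.61% at least 50%. Of the 86 genes higher in all 9 classes, 51.2% and 37.2% did so, and of the 278 genes lower in all 9, 16.9% and 3.96%. How reads that match more than 1 gene were treated in counting was not examined, and counts of genes with shared ends are given as uncertain. The copy Eno1b was counted on its own with 9 control and 2 KO UMIs in fibroblast-like cells, beside 399 and 212 for Eno1, and with 8 and 6 UMIs in macrophage-like cells (2.06, 0.25 to 3.78). The part of shared ends in the Eno1 and Gapdh ratios was not tested. The share of such words was 0.541% for Hk2 and 0% for Pdk4.

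**Figure D5:**
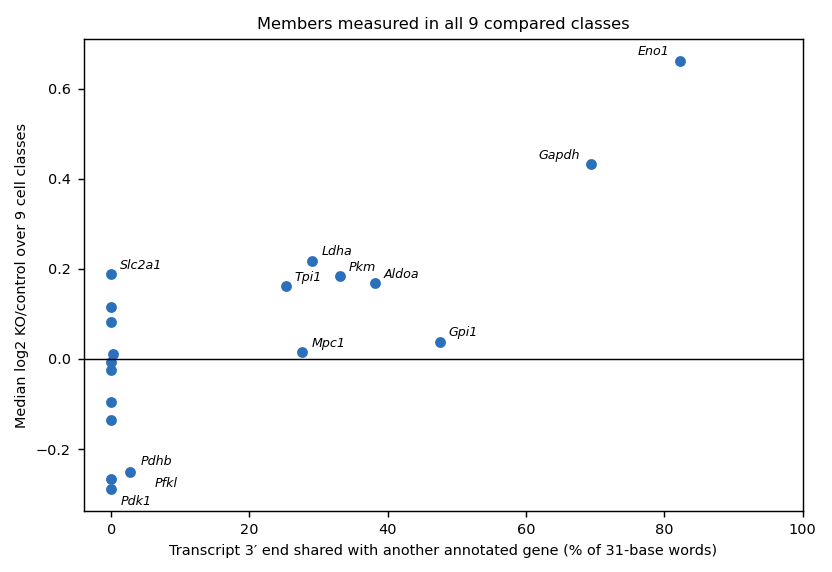
For the 19 members measured in all 9 classes, the share of 31-base words of the transcript's last 400 bases that another annotated gene also has (x axis, %) against the median log2 ratio of KO over control over the 9 classes (y axis). Eno1 and Gapdh lie at the upper right with 82.3% and 69.4% shared words and medians of 0.66 and 0.43, and most other members lie within 0.3 of no change.

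Promoters were read for the hypoxia element, since Hif1a is a member and its ratio between genotypes had an interval off 0 in 3 classes. The letters ACGTG, the core of that element, were searched on both strands, where they read CACGT on the other strand and the 2 can overlap as CACGTG. RefSeq promoter windows (GRCm38.p6, 250 bases before to 50 after a start) were held for 32 members, all but Slc2a3. The letters occurred in 19 of the 32 members (59.4%), against 21.8% of 27025 genes and 19.6% of 32851 windows. They were in 8 of 12 members before Pgam1, 2 of 5 after it and 2 of 7 of pyruvate fate. Ldha had the most, 5, in its window with the most matches, where each CACGTG counts as 2 matches, 1 per strand. Pgam1 and Gapdh had 1 each and Eno1 none in its 3 windows. Shown are the windows of Pgam1 and of its neighbours Gapdh and Eno1, and that of Ldha, with the matched letters in capitals. They are chr19:41911621-41911920 on the forward strand, chr6:125165724-125166023 on the reverse strand, chr4:150236458-150236757 on the forward strand and chr7:46845554-46845853 on the forward strand.
Pgam1: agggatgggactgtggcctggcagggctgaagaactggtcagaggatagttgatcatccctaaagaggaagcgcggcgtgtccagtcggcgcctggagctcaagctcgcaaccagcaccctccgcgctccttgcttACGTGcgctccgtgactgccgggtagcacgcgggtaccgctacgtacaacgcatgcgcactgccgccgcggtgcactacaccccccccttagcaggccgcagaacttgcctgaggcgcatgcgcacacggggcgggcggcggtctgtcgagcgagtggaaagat
Gapdh: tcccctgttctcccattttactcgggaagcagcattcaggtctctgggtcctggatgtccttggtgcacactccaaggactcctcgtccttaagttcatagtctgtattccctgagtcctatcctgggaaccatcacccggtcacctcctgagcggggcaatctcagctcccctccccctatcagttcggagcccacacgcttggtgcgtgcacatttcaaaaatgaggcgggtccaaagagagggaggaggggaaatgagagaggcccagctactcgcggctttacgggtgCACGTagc
Eno1: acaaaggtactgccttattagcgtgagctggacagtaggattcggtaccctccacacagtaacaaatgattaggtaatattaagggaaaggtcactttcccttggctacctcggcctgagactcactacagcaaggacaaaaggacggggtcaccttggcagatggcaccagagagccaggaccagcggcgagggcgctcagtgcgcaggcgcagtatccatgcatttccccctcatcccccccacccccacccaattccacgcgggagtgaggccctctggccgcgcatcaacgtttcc
Ldha: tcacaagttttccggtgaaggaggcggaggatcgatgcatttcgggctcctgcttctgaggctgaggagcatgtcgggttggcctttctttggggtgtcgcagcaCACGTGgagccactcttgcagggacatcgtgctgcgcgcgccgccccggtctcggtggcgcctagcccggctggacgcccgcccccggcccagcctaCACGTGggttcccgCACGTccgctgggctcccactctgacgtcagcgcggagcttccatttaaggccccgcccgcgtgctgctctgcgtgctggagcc
A match is a description of the letters and not a bound site.

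Genes of the HIF response outside the 33 members moved in both directions. Of 18 listed target genes, 15 were measured in fibroblast-like cells, with a median ratio of -0.02, 4 with an interval above 0 and 2 below, against 8.27% and 17.6% of all genes. Adm, a vasodilator peptide gene, was at 237 and 385 CPM (0.70, 0.59 to 0.80). Vegfa, the vessel growth factor, was at 24.5 and 33.2 CPM (0.44, 0.08 to 0.78). Ndrg1, a hypoxia-induced stress gene, was lower, at 76.2 and 41.9 CPM (-0.86, -1.15 to -0.59). In macrophage-like cells Vegfa was at 5.20 and 27.2 CPM (2.38, 1.63 to 3.14), but its 31 KO UMIs came from 5 cells, 1 of which held 58.1% of them. Ddit4, an inhibitor of mTORC signalling, was at 4.73 and 11.4 CPM (1.27, 0.21 to 2.25), and Bnip3l, a mitophagy receptor, lower at 164 and 107 CPM (-0.62, -0.90 to -0.34). In monocyte-like cells, where Hif1a itself had one of the widest ratios, Ddit4 was lower (-1.06, -1.75 to -0.42), with 56.0% of its 25 KO UMIs in 1 cell, and Mif, a cytokine gene, higher (1.06, 0.33 to 1.79).

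A wider set of 36 pathway genes was described the same way. In fibroblast-like cells 23 were measured, with a median of -0.16, 1 with an interval above 0 and 2 below, shares to be read beside the same 8.27% and 17.6%. Bpgm, which is abundant in red cells, was at 11.2 and 5.32 CPM (-1.07, -1.93 to -0.31). It was also lower in NK-like cells, at 47 and 5 UMIs (-1.54, -3.23 to -0.22), and in monocyte-like cells, at 36 and 2 UMIs (-3.11, -6.21 to -1.15). Haemoglobin was lower in the KO library in these 3 classes too (log2 ratios of the sum -0.56, -4.13 and -3.82), and its part was not tested. Slc2a12, a glucose transporter of fat and muscle, was higher in fibroblast-like cells on 11 and 12 UMIs (1.80, 0.49 to 3.12). Dlat, another subunit of pyruvate dehydrogenase, was lower in fibroblast-like (-0.42, -0.84 to -0.01), macrophage-like (-0.81, -1.68 to -0.04) and group 2 innate lymphoid-like cells (-1.64, -3.36 to -0.27). Its ratio was positive, with intervals that held 0, in NK-like (0.88), blood endothelial-like (0.87), T-like (0.65) and type 2 dendritic-like cells (0.26). In fibroblast-like cells Pdhx, which binds the complex together, had -0.41 (-0.99 to 0.13), and Dld, its shared dehydrogenase, 0.08 (-0.22 to 0.36). Bsg, the chaperone that brings monocarboxylate transporters to the membrane, was at 758 and 358 CPM in blood endothelial-like cells (-1.08, -1.35 to -0.82) and lower in T-like (-0.51) and group 2 innate lymphoid-like cells (-0.69). In monocyte-like cells all 11 measured genes of this set had a ratio below 0, as did 57% of all measured genes, and 3 had an interval below 0 (Bpgm, Tigar and Eno3), as did 10.6% of all genes. Eno3, the muscle enolase, was at 135 and 67.2 CPM there and made up 38.9% (33% to 45.0%) of control enolase UMIs. In type 2 dendritic-like cells it was higher, at 15.2 and 32.3 CPM (1.09, 0.16 to 1.97), on 17 KO UMIs from 7 cells.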

How the data were processed

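Unnormalized UMI counts per gene and barcode were deposited by the authors for each library. By the submitters' processing notes they used Cell Ranger 3.0.1, Seurat 3.1.5 and R 4.0.1 with the genome build mm10, and the barcodes held are those called as cells. The members and gene lists were chosen with earlier results of these data known. Barcodes under 500 detected genes or over 10% mitochondrial UMIs were left out. In each library the barcodes with the highest Scrublet scores were removed as doublets, 0.8% for every 1000 barcodes (265 control and 21 KO). Both libraries were clustered together with scanpy 1.11.5 and leidenalg 0.10.2 (2000 variable genes without the members, 30 components, 20 neighbours, resolution 0.5) under Python 3.11.15. Clusters took the name of the marker list with the highest mean score (at least 0.5 and a gap of 1 to the next, markers in at least 25% of cells), thresholds that were set after the data were seen, and the cell classes may differ from those of the study. UMIs were summed per class and library, and divided by the class total. Intervals at 95% were exact Poisson for levels, exact conditional binomial for ratios and exact Clopper-Pearson for shares. A gene was measured with at least 10 UMIs over both libraries, and a group at 0 UMIs was set to a floor of 3 UMIs for medians, which pulls ratios of low genes toward 0. Genes were named by rule: Pgam1 throughout, members 4-fold above their median over classes, and in each class up to 5 members in each direction with the largest ratios past 1.5-fold and an interval off 0. Other genes and the clusters within classes were chosen after their values were seen. Results were recomputed under 16 other settings, and under 3 more that were chosen after seeing the data. These include scaling factors from edgeR 4.0.16. The ratio steps were tested on simulated data.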

Additional observations from a re-analysis of the deposited data

Results flagged for a closer look

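In 3 members the ratio of KO over control lay past 1.5-fold with an interval off 0 in opposite directions in a pair of classes, and the difference between the classes was not tested. Pfkl had a log2 ratio of 1.01 in macrophage-like and -2.16 in monocyte-like cells, the latter on 28 control and 3 KO UMIs. In macrophage-like cells the Pfkl ratio changed sign in 3 of 17 alternative settings (lowest -0.39). By cluster, Pfkl had 1.06 (0.34 to 1.75) in the Lyz1 cluster and, on 2 KO UMIs, -0.06 (-3.19 to 1.95) in the Cd209f cluster. Pfkfb3 had 1.05 in type 2 dendritic-like and -0.89 in macrophage-like cells, but within the 2 clusters of the latter its intervals held 0 (-0.40, -1.48 to 0.53, and -0.70, -2.17 to 0.47). Pdk1 had 0.98 in blood endothelial-like and -2.33 in monocyte-like cells, the latter on 21 control and 2 KO UMIs.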

How the results depend on the processing

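With 1 library per genotype, no replicate could be left out and no test was made. No paired analysis was possible because each genotype has a single library. Of the values that answer a comparison, 170 of those recomputed stayed within counting error or 1.5 times of the value reported, 26 moved further, and 2 with an interval off 0 changed sign (Pgam1 in macrophage-like cells). The median before Pgam1 in macrophage-like cells, counted as moved, changed sign in 3 settings, and Pgam1 in fibroblast-like cells, whose interval held 0, in 3. Among single genes these counts were 536, 38 and 17. In fibroblast-like cells Pgam1 ran from -0.10 to 0.05 over 18 alternatives, Hk2 from 1.33 to 1.94 and the median after Pgam1 from 0.14 to 0.47. Gapdh was higher in the KO library in each compared class under each setting, and Eno1 likewise except with cells thinned to 2000 UMIs (7 of 9 classes) and without the 5 or the 5% of cells with the most member UMIs (8 of 9 in each). Fewer classes were compared under some settings. There were 6 with each library clustered on its own, and only 1 with limits of 1000 genes and 5% mitochondrial UMIs. The 2-fold threshold and a minimum of 50 UMIs left these ratios as they were. Macrophage-like cells account for most of the moves. When barcodes from 200 genes up and to 20% mitochondrial UMIs were taken, Pgam1 in that class had a log2 ratio of -0.024, Slc16a3 -0.66, Slc2a1 -0.079 and Hif1a -0.19, with 7 members lower. With limits of 1000 genes and 5%, the class held 133 control and 17 KO cells, the latter under the minimum of 30 for a compared class. There Pgam1 had 0.069, Pfkl -0.39 and Slc16a3 -0.18. The medians before and after Pgam1 were -0.14 and 0.051, and 4 members were higher and 6 lower. That setting also left 7 members 4-fold above their median over classes and turned Pdk4 in pericyte and smooth muscle-like cells against the rest to -0.94. Without doublet removal, Pgam1 had 0.037, Pfkl -0.10, Slc16a3 -0.58, Slc2a1 -0.15 and Hif1a -0.10, the median before Pgam1 was -0.094, and 3 members were higher and 6 lower. At resolution 0.3, Pgam1 had -0.022, Pfkl -0.073, Slc16a3 -0.54 and Hif1a -0.057, the median before was -0.079, and 2 members were higher and 4 lower. In these 4 settings the class held 12 to 46 of the 337 control cells of the Lyz1 cluster. At resolution 1.0, 1 member was lower, and with each cell given the same weight 6 were. With each library clustered on its own, no KO cell was named macrophage-like. Thinned to 2000 UMIs per cell, Pgam1 in macrophage-like cells had 0.75, 2 members were lower in fibroblast-like cells, 6 members stood 4-fold above their median, and Pdk4 in pericyte and smooth muscle-like cells had -0.77. At 2-fold, 1 member was higher in fibroblast-like cells, and 1 was higher and 1 lower in macrophage-like cells. Without the 5 cells with the most member UMIs, Pgam1 in macrophage-like cells had 0.081, 4 members were higher, Slc2a1 had -0.32, and Hk2 in group 2 innate lymphoid-like cells had -0.25. Of the settings chosen after seeing the data, leaving out the 5% of cells with the most member UMIs gave 0.25 for Pgam1 in macrophage-like cells, 3 members higher and -0.29 for Slc2a1. Leaving haemoglobin or genes with shared transcript ends out of the total moved no such value. Median-of-ratios factors moved the median of all genes by 0.11 in T-like, 0.12 in blood endothelial-like and 0.14 in group 2 innate lymphoid-like cells. With these factors 2 of 12 member intervals off 0 in fibroblast-like cells (Pdha1 and Pdhb) and 1 of 4 in T-like cells (Pgam1) held 0. Leaving genes with shared ends out of the total moved it by -0.10 in B-like cells. Low counts in the smaller KO library limit every ratio outside fibroblast-like and macrophage-like cells.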

Other observations

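Pgk1 was counted at low levels in all 13 control classes, from 1.43 CPM in mesothelial-like to 11.6 CPM in type 1 dendritic-like cells, although its neighbours Gapdh and Pgam1 were at 213 CPM or more and 50.0 CPM or more. Slc2a4, the insulin-responsive glucose transporter listed among the adipocyte markers, was at 87.7 CPM in control pericyte and smooth muscle-like cells. Slc16a1 was at 569 CPM (486 to 661) in the 20 KO mesothelial-like cells, beside 379 CPM in the 105 control cells of that class, which had too few KO cells to enter the comparison.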
